A study of Drosophila melanogaster with 9 samples.

Results

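The indirect flight muscle of the wild-type strain Canton-S was described here by the abundance of its transcripts, from 3 of the 9 arrays in the series. All 3 arrays labelled Canton-S were taken and no other array was used. Each array held RNA from the flight muscles of male Drosophila melanogaster, 1 to 2 days into adult life, reared at 25 °C under 12 h of light and 12 h of darkness. Per the labels, thoraces were dehydrated overnight in cold 70% ethanol, the muscles were lifted out after a midline cut, their RNA was isolated in TRIzol, and biotin-labelled cRNA made from 6 µg of it was hybridized to Affymetrix Drosophila Genome 2.0 arrays. The study describes the 3 arrays as independent biological replicates, named here Canton-S 1, 2 and 3. With 1 genotype there was no comparison between groups, and no test was made.

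The indirect flight muscles are the fibrillar muscles that fill the thorax of the fly and drive the wing beat by deforming the thoracic wall. They contract asynchronously: a nerve impulse keeps calcium high while stretch sets the timing of each contraction, so many wing beats follow 1 impulse. Their myofibrils are built from isoforms of actin, troponin C and other proteins that differ from those of the tubular muscles of the legs and the jump, and the space between the myofibrils is packed with mitochondria that burn carbohydrate.

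Values are log2 signals made by RMA, a method that corrects background, normalizes arrays and summarises the probes of each probe set. A step of 1 is a 2-fold difference in signal. Because probe sets differ in how strongly they bind their target, a rank in this report is a rank of array signal and not of transcript copies, and whether the brightest probe sets were saturated was not tested. After removal of 183 control probe sets, 18769 probe sets were ranked by their mean over the 3 arrays. Of these, 13647 named a single gene, 402 named several and 4720 named none in the annotation used, and the probe set with the highest mean stood for each of 11983 genes. No probe set was named as myosin heavy chain, troponin I, the second tropomyosin gene, the cytoplasmic actins, pyruvate kinase, citrate synthase or cytochrome c, so these were not analysed here.

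Means spanned 2.23 to 14.26, a range of 12.03 log2 units. The background level was taken from 186 probe sets of odorant, gustatory and ionotropic receptors, genes of sensory neurons that muscle is not known to use. The median of these was 2.84, their 95th percentile, 3.29, was set as the background level, and the highest of them, Ir68a, averaged 4.10. All 3 arrays exceeded the level for 6099 probe sets (32.5%) and for 4795 genes (40.0%), and the median over all genes was 3.23. A further 2581 probe sets exceeded it on 1 or 2 arrays only and were counted as near background. The top 1% held 188 probe sets, which named 119 genes (0.993% of all genes), and the top 5% held 939, which named 716 genes (5.98%). Between the top 5% and background lay 5160 intermediate probe sets with 4079 genes, and 12670 probe sets with 7188 genes were near background. The edge of the top 1% had no step: Ald1 at rank 188 averaged 11.44 and Ogdh at rank 189 averaged 11.43.

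**Figure D1:**
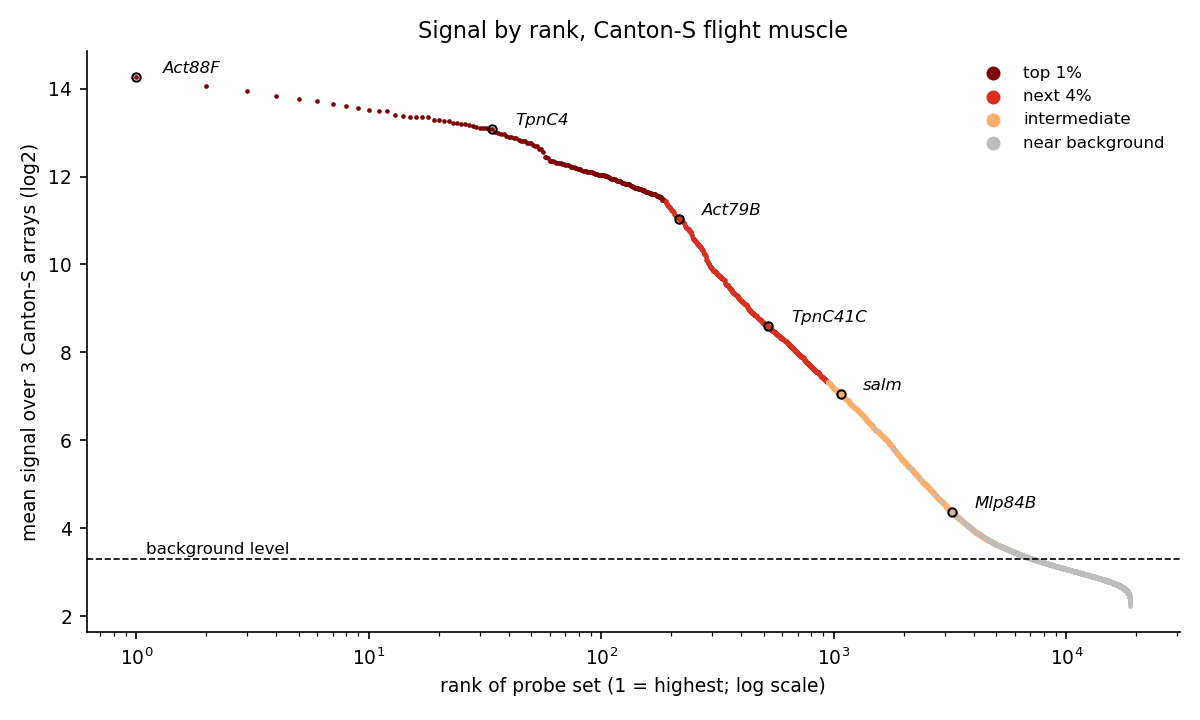
Mean log2 signal over the 3 Canton-S arrays (vertical axis) against the rank of each of 18769 probe sets (horizontal axis, log scale), coloured by tier, with 6 muscle genes circled and the background level of 3.29 dashed. Signal stays above 11.44 for the first 188 probe sets and then falls steeply towards the background level. Near-background probe sets overlap the intermediate ones in mean because a probe set counted as above background only if all 3 arrays exceeded the level.

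The 3 arrays ranked the genes much alike. Pearson's r over all probe sets was 0.980 between Canton-S 1 and 2, 0.983 between 1 and 3, and 0.978 between 2 and 3, as a description across probe sets of the same design, and 177 of the 188 probe sets of the top 1% were in the top 1% of each array alone. The median SD over arrays was 0.33 in the top 1% and 0.11 near background. Canton-S 1 read lower at the bright end: its top 1% probe sets had a median 0.57 below the mean of the other arrays, and its 99th percentile was 11.08, against 11.61 in Canton-S 2 and 11.65 in Canton-S 3. Near background the same array differed by 0.01. The hybridization control BioB was 8.92, 8.18 and 9.18 on Canton-S 1, 2 and 3, so it was lowest on another array than the bright genes were.

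The label of the tissue was checked against its markers. Act88F, the actin gene used by the indirect flight muscle, had the highest signal of all probe sets, with 14.10, 14.32 and 14.36 on Canton-S 1, 2 and 3. The gene for flightin, fln, a thick filament protein particular to the flight muscle, stood at gene rank 4 with 13.65, 13.94 and 13.91. TpnC4, the troponin C isoform linked to stretch activation, had 12.85, 13.16 and 13.24, and the regulatory myosin light chain Mlc2 had 12.62, 13.12 and 12.98. The selector gene salm, a zinc finger factor that switches muscle to the fibrillar type, was intermediate, with 7.14, 7.09 and 6.92. Each of these markers was above background on every array, as were 40.0% of all genes. The tubular muscle genes Act79B and TpnC41C were above it on every array too, with means of 11.04 and 8.59.

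Signal was concentrated in few genes. On the linear scale, the 119 genes of the top 1% carried 57.8% ± 2.31 of the signal summed over all named genes (SD, n = 3), and the 30 highest genes alone carried 26.1% ± 0.48. The 7188 genes near background together carried 4.67% ± 0.76. Of the sets given here, the respiratory chain and ATP synthase had the largest share, with 24.9% ± 1.58 over 70 genes. Shares count only genes with a named probe set, so they depend on which genes were named. Of 86 listed cytosolic ribosomal genes, 34 were measured, and 59 of the 188 probe sets of the top 1% named no gene. Genes of the sarcomere (36 genes) carried 8.99% ± 0.16, cytosolic ribosomal proteins (34 genes) 7.92% ± 0.80, the citric acid cycle (16 genes) 4.85% ± 0.17, and glycolysis with carbohydrate stores and shuttles (25 genes) 4.63% ± 0.20. Act88F alone carried 1.56% ± 0.09. Of the 119 genes in the top 1%, 47 were on the lists of the respiratory chain or ATP synthase and 23 on that of the cytosolic ribosome. A further 11 were on the sarcomere lists and 9 on those of glycolysis and stores. The citric acid cycle list had 7 when succinate dehydrogenase is counted with the respiratory chain. COX7B and COX7AL2, named as subunits of cytochrome c oxidase but on no list, enter neither the 47 nor the 24.9%. The respiratory and citric acid cycle sets overlap in 3 genes, SdhB, SdhC and SdhD, which enter both shares.

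**Figure D2:**
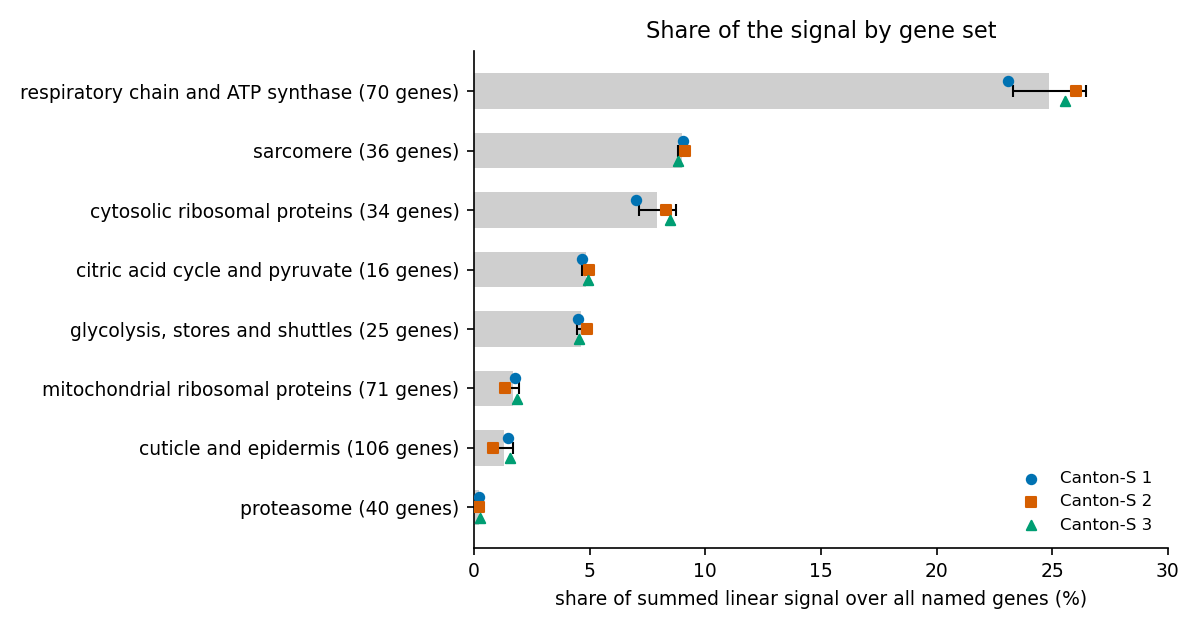
Share of the summed linear signal over 11983 named genes (horizontal axis, percent) for 8 gene sets. Genes without a named probe set are left out of every set, so the shares depend on which genes were named. Bars are the mean of the 3 Canton-S arrays with the SD, and points are the single arrays; the respiratory chain and ATP synthase stand at 24.9%, the sarcomere at 8.99% and the proteasome at 0.219%.

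The sarcomere genes covered nearly the whole range of the signal. In the thin filament, where actin is wound with tropomyosin and the troponins, all 9 measured genes were above background and 4 were in the top 1%, with a median of 11.04. Act88F, TpnC4, the tropomyosin gene Tm2 (12.72, 13.19 and 13.01) and the troponin T gene up (11.80, 12.21 and 12.12) made up the top 1%. The other measured actins, Act79B and Act87E, and troponin Cs, TpnC41C and TpnC73F, stood below them in mean, though Act79B exceeded up on Canton-S 3. Of 17 listed thin filament genes only 9 had a named probe set, so neither family need be complete. Act79B, the actin of tubular muscles, had 9.31 on Canton-S 1, 11.62 on Canton-S 2 and 12.17 on Canton-S 3, and Act87E, an actin known from larval muscle, had 5.55, 6.76 and 5.92. TpnC41C, a troponin C of tubular muscle, had 6.76, 8.97 and 10.03, and TpnC73F, known from larval muscle, had 3.83, 3.86 and 3.99.

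Among the measured genes of both families the order was the same on every array. The lowest Act88F value, 14.10, exceeded the highest Act79B value, 12.17, and the lowest Act79B value exceeded the highest Act87E value, 6.76. Likewise the ranges of TpnC4, TpnC41C and TpnC73F did not overlap. The actin genes are nearly identical in their coding sequence, so how far their probe sets share signal is uncertain. Act79B and TpnC41C were both lowest on Canton-S 1, as was tmod, which encodes the tropomodulin that caps the slow-growing ends of thin filaments (5.75, 7.69 and 7.82). On that array Act79B lay 2.31 below the nearer of the other values, which is more than the 0.57 by which the top 1% as a whole was lower there, whereas Act88F and TpnC4 on Canton-S 1 lay within 0.32 of the nearer value. The median of the thin filament list was the value of Act79B on Canton-S 1 and 2, 9.31 and 11.62, and that of up on Canton-S 3, 12.12. Over the arrays other than Canton-S 1 the median was 11.90. Whether more tubular muscle was dissected with some samples was not tested, and in pooled tissue fewer cells of a type cannot be told apart from less RNA per cell.

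All 11 measured genes of the thick and connecting filaments were above background, 6 of them in the top 1%, with a median of 11.46. The median was 9.87 when all probe sets naming a gene were averaged. The essential light chain gene Mlc1 led with 13.73, 14.01 and 14.09, ahead of fln and Mlc2. Strn-Mlck, the gene of the giant protein stretchin, had 12.50, 12.91 and 12.67, and Obsc, the gene of the M-line protein obscurin, had 11.98, 12.35 and 12.08. Paramyosin, the core protein of insect thick filaments encoded by Prm, had 11.15, 11.73 and 11.50. The connecting filament genes followed: bt, which encodes projectin, had 10.74, 11.17 and 10.93, and sls, which encodes the kettin and sallimus proteins, had 8.23, 7.63 and 7.52. The myofilin gene Mf had 10.20, 10.27 and 10.80. The lowest members were Mlc-c, a light chain of non-muscle myosin, at 6.61 ± 0.08, and unc-45, a chaperone that folds myosin, at 6.45 ± 0.71 (SD, n = 3).

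**Figure D3:**
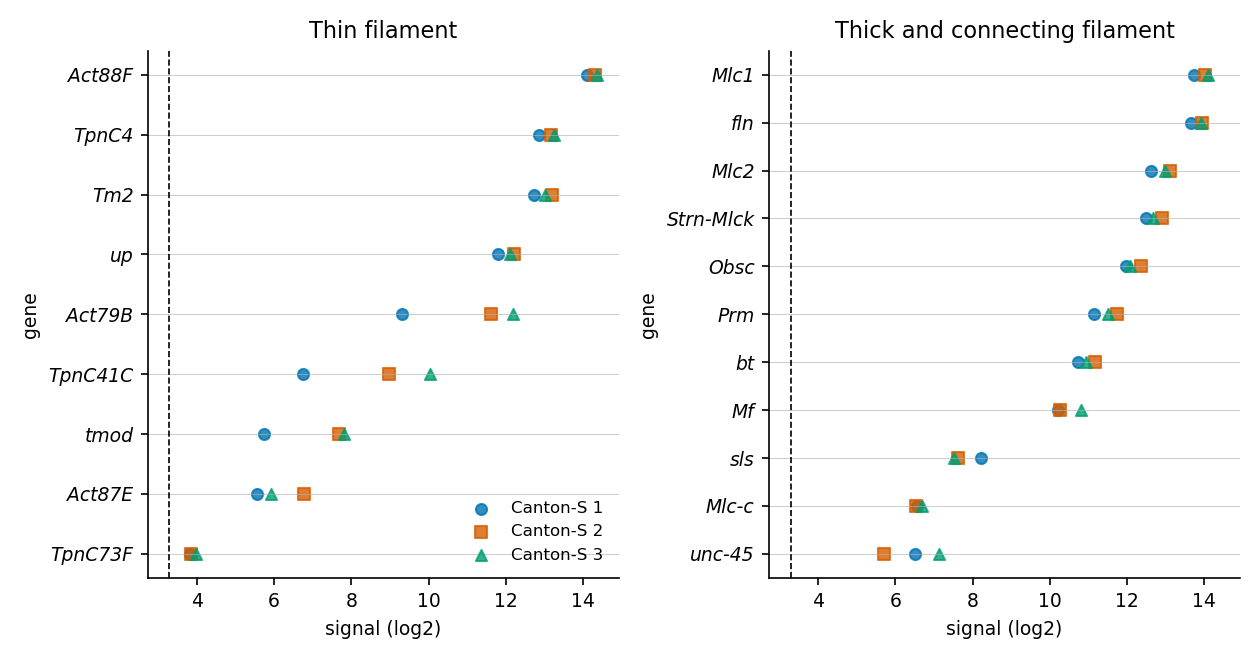
Log2 signal on Canton-S 1, 2 and 3 (horizontal axis) for the 9 thin filament genes and the 11 thick and connecting filament genes (vertical axis), in order of their mean, with the background level dashed. The 3 arrays lie close together for Act88F, TpnC4, Tm2 and up, while Act79B, TpnC41C and tmod are lowest on Canton-S 1.

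The Z-disc joins neighbouring sarcomeres and anchors thin filaments. Of 16 measured genes for the Z-disc and myofibril assembly, 14 were above background and 7 were in the top 5%, with a median of 6.89. Zasp52, a PDZ and LIM protein that binds alpha-actinin, was the only one in the top 1%, with 12.00, 12.52 and 12.25. The alpha-actinin gene Actn had 10.98, 11.38 and 11.19, and tn, a TRIM protein needed to keep muscle intact, had 10.47, 11.61 and 11.16. The Zasp52 relatives Zasp66 and Zasp67 averaged 9.85 and 9.49. Between the muscle LIM proteins the signal differed, with Mlp60A at 10.23 ± 0.28 and Mlp84B at 4.37 ± 0.49. The lowest members were the formin gene DAAM (3.57, 4.19 and 3.26) and the filamin-type gene jbug (3.97, 3.62 and 3.28), for which 1 array each fell below the background level.

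Genes of calcium handling and excitation were spread from the top 1% to background, with 12 of 19 above background and a median of 4.19. Argk1, the arginine kinase that buffers ATP in insect muscle, was highest with 11.78, 12.05 and 12.26. The calcium pump of the sarcoplasmic reticulum, SERCA, had 10.16, 10.66 and 10.74, the calcium release channel RyR had 9.29, 9.55 and 9.38, and nrv1, a subunit of the sodium pump, had 7.93, 8.63 and 8.41. Signals of the surface channels were lower. The L-type calcium channel gene Ca-alpha1D averaged 5.72 ± 0.35 and the calcium-activated potassium channel gene slo 5.69 ± 0.27. Near background lay SK at 2.94, another potassium channel gene, and MCU at 2.63, the pore of the mitochondrial calcium uniporter.

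Regulators of muscle identity stood close to the average gene. Of 11 measured genes none was in the top 5% and 5 were above background, against 40.0% of all genes, and the median was 3.25, against 3.23 over all genes. After salm came the splicing factor gene Rbfox1 at 5.57 ± 0.33, the spalt relative salr at 4.30 ± 0.26, and vg, a transcriptional cofactor of wing and flight muscle, at 4.27 ± 0.24. The lowest were ewg at 2.84 and nau at 2.74. The first encodes erect wing, a factor needed when flight muscle forms, and the second the fly relative of MyoD.

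By the brightest probe set of each gene, the lists of oxidative phosphorylation had the highest medians. These were 13.11 for ATP synthase, 12.55 for complex IV, 12.11 for complexes II and III and 11.73 for complex I, in this order on each array. When all probe sets naming a gene were averaged the order changed: complex IV then had a median of 10.03, below the 11.70 of complex I, the 11.67 of the citric acid cycle and the 11.54 of glycolysis, while ATP synthase had 12.75 and complexes II and III 11.91. The ADP/ATP carrier of the inner membrane, sesB, stood at gene rank 2, with 13.83, 14.20 and 14.17. Of the 16 ATP synthase genes measured, 11 were in the top 1%, and these lay between 12.69 (ATPsynD) and 13.64 (ATPsynC). ATPsynC encodes the ring subunit, and had 13.36, 13.80 and 13.76. The catalytic subunit genes were close to it, with blw, the alpha subunit, at 13.30, 13.69 and 13.70 and ATPsynbeta at 13.15, 13.39 and 13.63. The small subunit gene sun was an exception, at 2.69, 2.83 and 2.89. A low value says only that this probe set was not bright.

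In complex I, which passes electrons from NADH to ubiquinone, 22 of 32 measured genes were in the top 1%. ND-MLRQ was highest with 13.04, 13.50 and 13.53, ND-B22 averaged 12.36, and the catalytic subunit genes ND-75 and ND-51 averaged 11.77 and 12.00. ND-B12 stood apart from the other subunits at 5.03, as did ND-B8 at 3.17 ± 0.51. In complexes II and III, all 10 measured genes were above background and 7 were in the top 1%. UQCR-6.4 had 12.98, 13.54 and 13.56, UQCR-14 had 12.86, 13.43 and 13.40, and the cytochrome c1 gene Cyt-c1 had 12.75, 13.29 and 13.26. The lowest was UQCR-11 at 3.90 ± 0.29. Among the listed genes of complex IV, the oxidase that reduces oxygen, COX4 led with 12.87, 13.39 and 13.39, followed by COX5A with 12.86, 13.41 and 13.34. COX7B and COX7AL2, outside the list, averaged 13.34 and 13.27, above the 13.22 of COX4. All 3 arrays gave cype, another subunit gene of the oxidase, values between 11.92 and 12.50.

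Many of these subunits have a second gene in the fly genome, marked by an L for "like" in its name, and several such copies are known from the testis. Most of these copies had low signals, as did most genes on the array, of which 60% were near background. In complex IV, all 4 L genes were near background, between 2.60 and 2.92, against a median of 12.85 for the other 8. COX4L, for example, had 2.81, 2.84 and 2.78. In ATP synthase, the 4 L genes lay between 2.92 and 3.94, and 2 of them, ATPsynbetaL and ATPsynepsilonL, were above background; ATPsynepsilonL, at 3.73, was brighter than sun, the epsilon subunit gene. In complex I, the 5 L genes lay between 3.06 and 5.54, 2 of them were above background, and ND-20L was the brightest. The gene COX7AL2 was an exception outside these lists, with 12.95, 13.42 and 13.45, while COX7A averaged 6.91 and COX7AL 2.60. Among carriers and channels of the mitochondrial membranes, copies also differed. Next to sesB, its neighbouring copy Ant2 had 3.64, 3.52 and 3.32. The outer membrane channel gene porin had 10.87, 10.81 and 11.48, and its relative Porin2 had 3.24, 2.80 and 3.04.

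The 13 measured carrier genes had a median of 5.06 and 9 were above background. Below sesB came Mpcp1, the phosphate carrier, with 12.59, 13.13 and 12.94, and mfrn, the iron carrier mitoferrin, with 9.24, 9.55 and 9.45. The uncoupling protein genes were lower: Ucp4A averaged 6.95, Ucp4C 4.21 and Ucp4B 3.42. Bmcp, another carrier of that family, was lowest at 2.90.

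**Figure D4:**
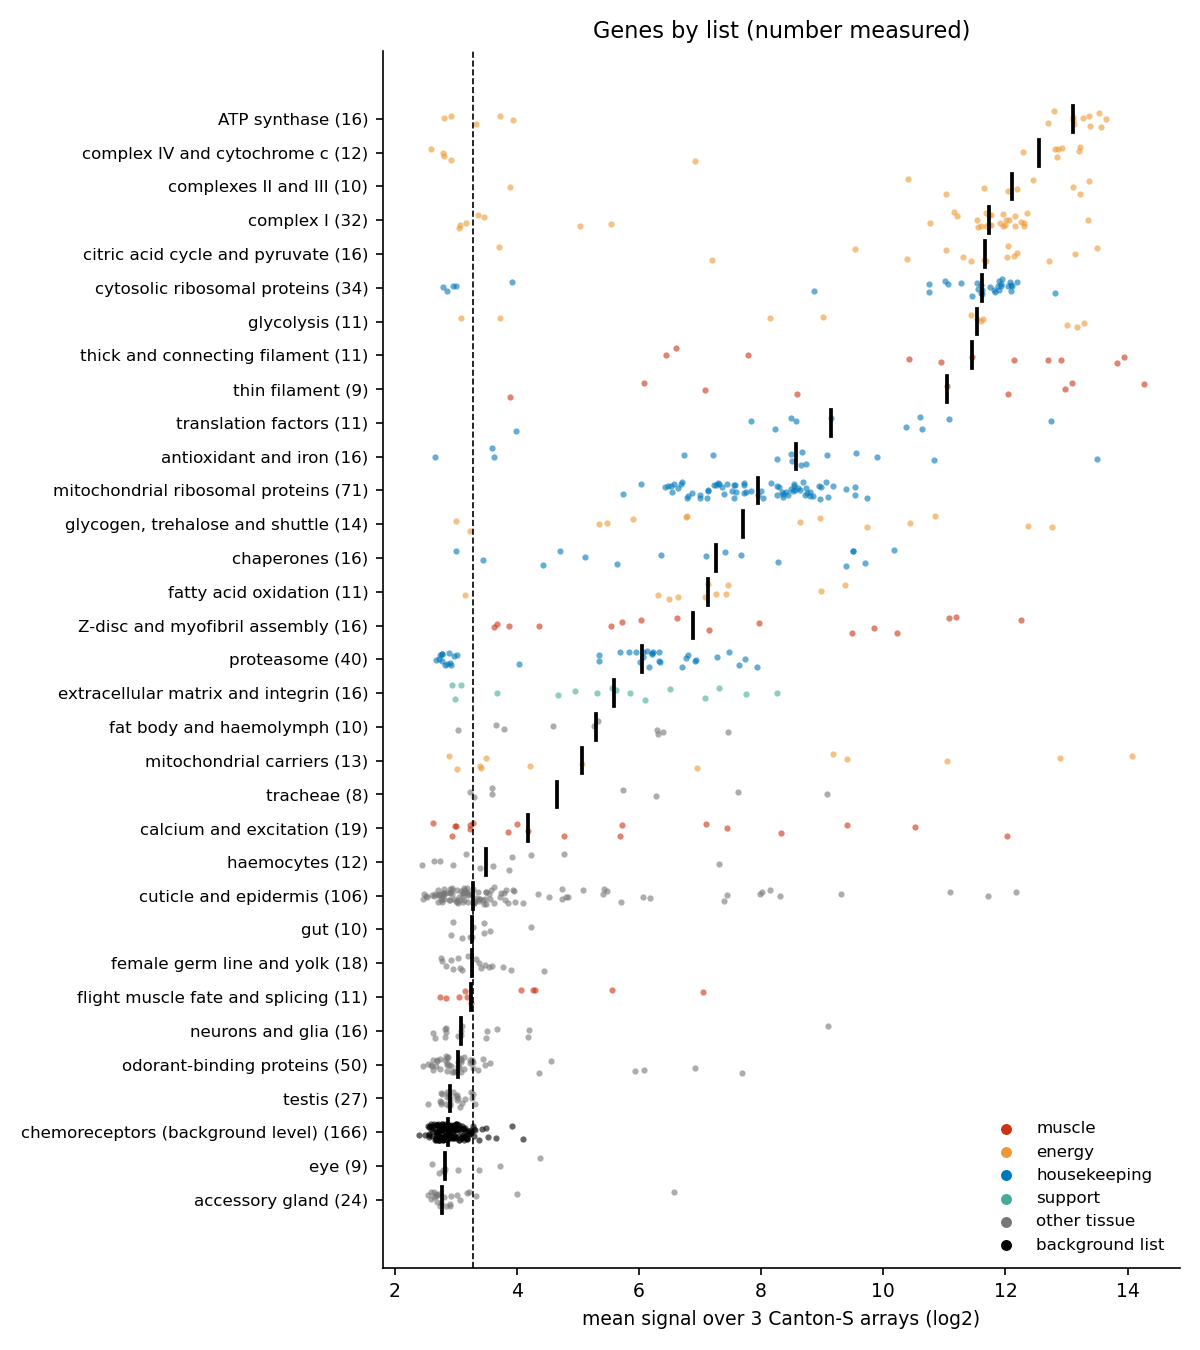
Mean log2 signal over the 3 Canton-S arrays (horizontal axis) of each measured gene in 33 lists (vertical axis, number measured in brackets), ordered by the list median, which is the black bar. The dashed line is the background level; medians run from 13.11 for ATP synthase to 2.78 for the accessory gland, and the separate low points in the ATP synthase, complex IV and proteasome lists are mostly the copies named L, T or R.

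In the citric acid cycle, which oxidizes fuel from carbohydrate and fat alike, and in pyruvate entry, all 16 measured genes were above background, 9 in the top 1%, with a median of 11.67. Idh3a, a subunit of the NAD-linked isocitrate dehydrogenase, had 13.14, 13.67 and 13.66, and the aconitase gene mAcon1 had 12.89, 13.30 and 13.23. The pyruvate dehydrogenase component muc averaged 12.71 ± 0.22 and the mitochondrial pyruvate carrier Mpc1 10.39 ± 0.27. The succinyl-CoA ligase genes showed a split, with Scsalpha1 at 12.02 ± 0.30 and ScsbetaA at 11.30 ± 0.26, beside ScsbetaG at 3.71 ± 0.18. ScsbetaA and ScsbetaG encode alternative beta subunits, specific for ADP and GDP.

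In glycolysis, 7 of 11 genes were in the top 1% and the median was 11.54. The 3 highest were Gapdh1 with 12.99, 13.42 and 13.47, the enolase gene Eno with 12.92, 13.33 and 13.27, and the triose phosphate isomerase gene Tpi with 12.73, 13.19 and 13.11. The gene of phosphofructokinase, Pfk, a control point of the pathway, had 11.41, 11.73 and 11.67. Copies again differed: Hex-A averaged 9.02 and Hex-C 3.72 among the hexokinases, and Pglym78 averaged 8.15 and Pglym87 3.09 among the phosphoglycerate mutases. The glycerol phosphate shuttle carries electrons from the cytosol to the respiratory chain in flight muscle, and its cytosolic enzyme gene Gpdh1 had 12.47, 13.05 and 12.75. Of the genes for stores, the glycogen phosphorylase gene Glyp had 12.04, 12.69 and 12.37, the glycogen synthase gene Glys 9.99, 10.85 and 10.47, and the trehalose transporter gene Tret1-1 8.81, 10.27 and 10.11. Treh, which splits trehalose, averaged 5.90 ± 0.33. UGP was lowest in the list at 3.01, and the 14 genes for stores and shuttles had a median of 7.71.

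In fatty acid oxidation, none of 11 was in the top 1%, 4 were in the top 5%, 10 were above background, and the median was 7.12. The highest was wal, an electron transfer flavoprotein subunit, with 9.11, 9.49 and 9.52, followed by Mtpbeta, a subunit of the trifunctional protein, with 8.67, 9.16 and 9.12. The carnitine palmitoyltransferase gene whd averaged 7.12 ± 0.42.

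Protein synthesis was bright in the cytosol and moderate in the mitochondria. Cytosolic ribosomal proteins had a median of 11.62, with 23 of 34 measured genes in the top 1%; only 34 of the 86 genes listed had a named probe set. RpL41 was highest with 12.51, 12.92 and 12.98, and RpL15 had 11.77, 12.42 and 12.39. Of 5 copies, RpS5b, RpL10Aa, RpS19b and RpS10a were near background, between 2.80 and 3.00, and RpS28a, at 3.93, was above it. RpL10Ab averaged 11.93. All 71 measured mitochondrial ribosomal protein genes were above background, within 5.74 (mRpS23) and 9.74 (mRpL42), with a median of 7.96. The elongation factor gene eEF1alpha2 had 12.53, 12.90 and 12.83, and 10 of 11 translation factors were in the top 5%.

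Genes of protein breakdown were mostly intermediate and those of folding reached higher. Of 40 proteasome genes, the 26 without a testis-type suffix T or R were all above background with a median of 6.28, and Prosbeta5, a proteolytic subunit, was highest with 7.74, 7.89 and 8.19. Of the 14 with such a suffix, 1 was above background, against 40.0% of all genes, and they lay between 2.69 and 4.04. Prosalpha3T, for example, averaged 2.78. Of 16 chaperone genes, 8 were in the top 5%, 6 were intermediate and 2 near background, with a median of 7.26. Hsc70-1 had 9.98, 10.31 and 10.26, and l(2)efl, a small heat shock protein of muscle, had 9.93, 9.25 and 9.35. Stress-inducible Hsp26 differed between arrays, with 4.71, 4.11 and 6.54.

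GstS1, at gene rank 8, encodes a glutathione S-transferase that is bound to the thin filament of insect flight muscle, and had 13.34, 13.55 and 13.60. Of the 34 glutathione S-transferases measured, no other reached the top 1%, and GstE13, the next, averaged 8.89 ± 0.32. Mitochondrial superoxide dismutase, Sod2, had 10.39, 11.10 and 11.02, the mitochondrial peroxiredoxin gene Prx3 averaged 9.56, and the catalase gene Cat averaged 6.74 ± 0.65. The ferritin genes Fer1HCH and Fer2LCH averaged 9.08 and 8.65, and Fer3HCH, a mitochondrial ferritin known from the testis, 2.66. Extracellular matrix and integrin genes had a median of 5.60, led by the collagen IV genes Col4a1 at 8.26 ± 0.13 and vkg at 7.08 ± 0.13, and by SPARC at 7.76 ± 0.19. The integrin beta subunit gene mys averaged 6.51 ± 0.07.

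A group of 15 genes of the top 1% belonged to no list and were chosen for naming after their values were seen. COX7B (13.02, 13.45 and 13.56) and COX7AL2 are named as further subunits of cytochrome c oxidase, Scp1, which averaged 12.77, as a sarcoplasmic calcium-binding protein, and Mic26-27, which averaged 11.46, as a part of the complex that shapes mitochondrial cristae. CG13067 had 13.22, 13.64 and 13.17 and no role is given for it here. A further 59 probe sets of the top 1% named no gene, and 6 of these stood among the 38 highest probe sets of the whole array, at 12.96 or more.

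Some probe sets of the same gene disagreed widely. Of 1094 genes with several probe sets, 174 had a gap over 2 log2 units between the highest and lowest, against a median gap of 0.57. In the muscle and energy lists 34 genes had several, and 14 exceeded 2. For Strn-Mlck, the brightest of 3 probe sets averaged 12.70 and the dimmest 3.57; for Obsc they averaged 12.14 and 3.85; and for Zasp66 9.85 and 4.02. The formin gene Fhos had 7.97 and 2.69, and sls 7.79 and 3.20. The giant genes make several transcripts, but no source used here says which transcript each probe set reads. Metabolic genes showed the same: COX7C averaged 12.87 and 2.69, RFeSP, the Rieske protein gene of complex III, 12.03 and 3.00, Gpdh1 12.76 and 4.31, and Ald1 11.44 and 5.02. Sh, the Shaker potassium channel gene, had 7 probe sets between 7.45 and 2.98. A rank by the brightest probe set therefore speaks for 1 part of such a gene.

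Markers of other tissues are set against the 60% of all genes (7188 of 11983) that were near background. All 27 testis genes were near background, with dj at 2.54, as were 22 of 24 accessory gland genes, with the sex peptide gene SP at 2.91, and 7 of 9 eye genes. Among 16 genes of neurons and glia, elav averaged 3.50, brp 3.09 and repo 3.05; Gs2, a glutamine synthetase also active outside glia, was the only member in the top 5%, at 9.09 ± 0.58. Of 12 haemocyte genes, 7 were above background, with Hml at 4.78 ± 0.30 and NimC1 at 3.87 ± 0.02. Among 10 gut genes 4 were above background, the highest being Mur18B at 4.24, and Jon65Ai averaged 2.95. Yolk and germ line genes had a median of 3.27, and the yolk protein genes Yp1 and Yp2 averaged 3.42 and 3.78 in these males. The 2 accessory gland genes above background were Sfp53D, with 5.32, 7.46 and 6.96, and Dup99B, with 4.09, 3.93 and 3.99. The gut, neuron and yolk lists, with 6 of 10, 10 of 16 and 12 of 18 genes near background, lay near the share of all genes, and the haemocyte list, with 5 of 12, below it.

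The fat body list had a median of 5.29 and the tracheal list 4.67, against 3.23 over all genes. The larval serum protein gene Lsp2, a marker of fat body, had 7.71, 5.90 and 8.77, and Fbp1 had 6.29, 5.30 and 7.57; 9 of 10 fat body genes were above background. Summed over that list, the linear signal was 553, 346 and 1148 on Canton-S 1, 2 and 3. Tracheae branch into flight muscle fibres, and Gasp, a chitin-binding protein of their lining, had 8.74, 9.63 and 8.88, with serp and verm, which trim chitin, at 6.27 and 5.74. The cuticle list as a whole was close to the average gene, with a median of 3.29. Of its 106 genes, 43 were above background, against 40.0% of all genes. In the top 5%, which held 5.98% of all genes, were 10 of the 106. They were led by Cpr64Aa (12.26, 12.23 and 12.02) and Cpr64Ad (11.44, 11.38 and 12.31). The cuticle list carried 1.27% ± 0.41 of the summed signal, with 1.48, 0.80 and 1.54% on the 3 arrays. The sarcomere list carried 9.02, 9.13 and 8.81% on the same arrays.

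Of the 10 above-background probe sets with the largest SD over the arrays, 4 were cuticle genes and 9 were lowest on Canton-S 2. The cuticle list held 43 of the 4795 genes above background. Cpr30B had 9.35, 4.38 and 10.29, Cpr30F 10.68, 5.80 and 11.44, and Twdlbeta 8.50, 4.47 and 9.19. Try29F, a trypsin-type protease gene, had 9.34, 3.77 and 8.51, and Osi15, of the osiris family, 8.54, 3.54 and 8.17. All 5 were lowest on Canton-S 2, as were CG14095 (9.68, 6.37 and 11.43), CG13048 (8.10, 3.93 and 8.56) and the cuticle gene Cpr51A (6.40, 3.57 and 8.57). On that array 12 probe sets lay over 2 log2 units below both others while those 2 were within 1 of each other. Of these 12, 4 were cuticle genes, beside 106 cuticle genes among all 11983 genes. Obp99b, an odorant-binding protein gene, was also lowest there, with 6.02, 3.50 and 8.74, as were Lsp2 and Fbp1.

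Canton-S 1 had another set of low genes, also 12 probe sets. Act79B was among them, as were the cuticle gene Cpr100A (5.72, 9.33 and 9.36), the neuropeptide-like gene Nplp3 (4.29, 7.74 and 8.70) and the lipocalin gene NLaz (4.04, 7.44 and 8.01). The chitinase gene Cht5 (7.39, 9.61 and 9.52) and the pigment gene e (4.54, 6.71 and 6.69), both active in making cuticle, were low on the same array. On Canton-S 3, 8 probe sets were low by the same measure, led by Achl (9.22, 8.66 and 5.01), and 9 were high. CG11413 fell in no such class, with 3.30, 6.44 and 8.98. How much of these differences came from dissection, age within the sampled window or the arrays was not tested.

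**Figure D5:**
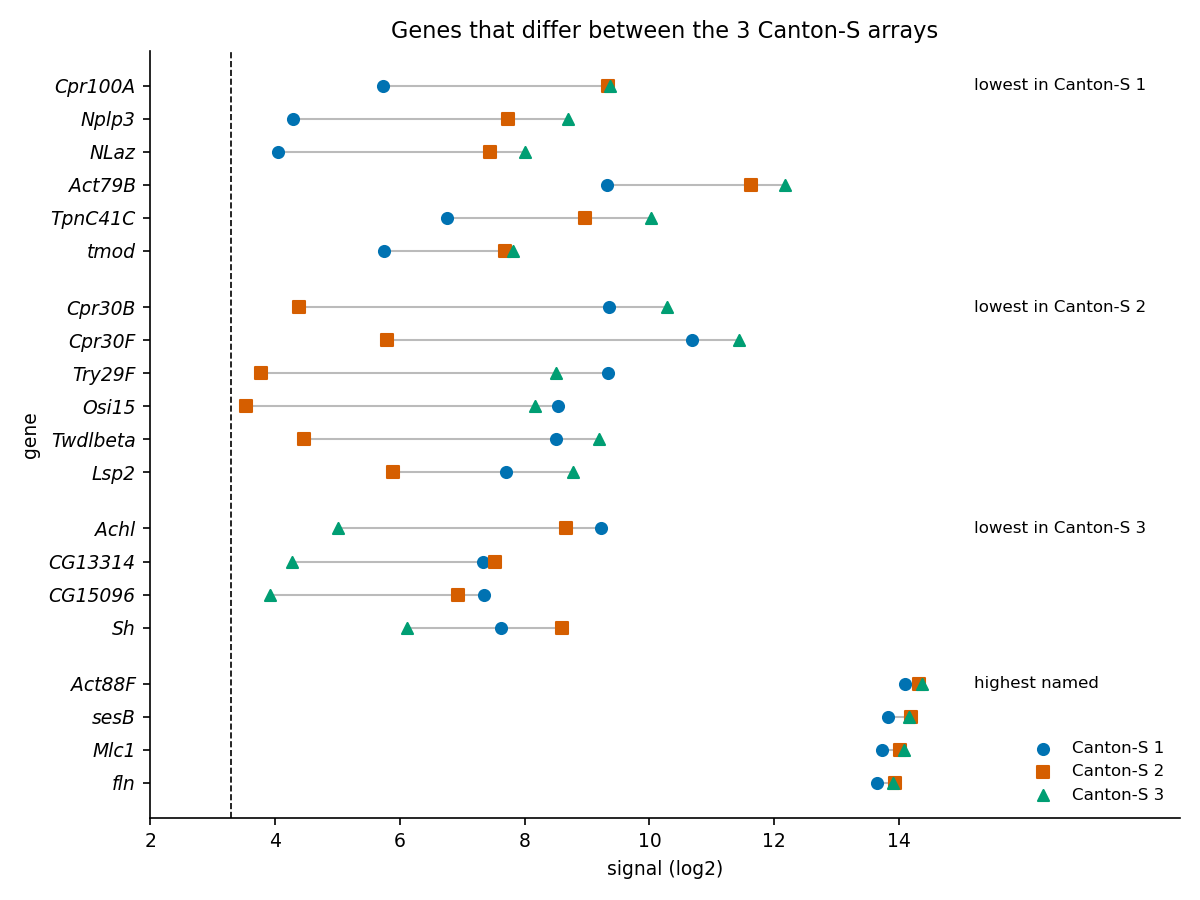
Log2 signal on Canton-S 1, 2 and 3 (horizontal axis) for 16 genes that differ between the arrays and for the 4 highest named genes; grey lines join the lowest and highest array, and the dashed line is the background level. Act79B, TpnC41C, tmod and the cuticle gene Cpr100A are lowest on Canton-S 1. The cuticle genes Cpr30B, Cpr30F and Twdlbeta, and Lsp2, are lowest on Canton-S 2, while Act88F, sesB, Mlc1 and fln each span at most 0.37.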

How the data were processed

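RNA from the flight muscles of 9 samples was hybridized to 9 arrays, of which the 3 Canton-S arrays were used. The authors deposited log2 values for 18952 probe sets, made by RMA per the series' design text and the submitters' processing notes; the sources used here do not say if the 3 genotypes were normalized as 1 set. Columns were matched to samples by accession, and 0 columns were left unmapped. Gene names came from the platform annotation, updated through RefSeq gene identifiers. Precision rests on the spread between 3 arrays, since arrays carry no read depth.

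Means, SDs, tiers, list medians and shares of linear signal were computed with Python 3.11.15, numpy 2.4.6 and pandas 2.3.3, and figures drawn with matplotlib 3.10.9. The background and tier steps were tested on simulated data. The genes and lists were chosen with earlier results of these data known. There were 33 lists, a few entries of which were corrected once their matches had been seen, and 16 lists were added after the levels were seen.

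Genes named in the text were drawn from the 30 highest probe sets naming 1 gene, not all of which are named, and from up to 4 high and 2 low members of a list. All filament genes, the 10 above-background probe sets with the largest SD, and up to 10 genes with the largest gap between probe sets were also named. Genes low or high on 1 array, paralogues and the top genes outside the lists were named after their values were seen. No sequence was printed and no test was made. Alternatives were the percentile and the genes that set the background, the rule over arrays, repeated quantile normalization, the rank by median, an average of all probe sets naming a gene, subtraction of the receptor median and each array left out in turn.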

Additional observations from a re-analysis of the deposited data

How the results depend on the processing

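Of 270 recomputed values, 250 moved by less than their spread or, for counts, by less than 1.5 times. This spread was taken over the same arrays, and leaving out 1 array shifts a mean by less than it. The shares without 1 array could therefore not exceed the limit, and the list medians without 1 array rarely could. The limit for counts was wide too, so the 250 is not a measure of robustness, and the values themselves are given below. The count of probe sets above background was 6957 and 4158 with the 90th and 99th receptor percentile, 7251 with the mean rule, and 6319 to 6656 without each array in turn. It was 2708 when genes of the accessory gland, eye, female germ line and odorant-binding proteins set the level, lists that hold some bright genes such as Sfp53D and Obp44a. The top 1% kept 185 to 187 of its 188 probe sets under each alternative. With an average of all probe sets naming a gene, the medians were 12.75 for ATP synthase, 10.03 for complex IV and 9.87 for the thick filament, since dim second probe sets then count. With the receptor median subtracted, an alternative chosen after seeing the data, the share of the respiratory chain and ATP synthase was 26.6% and that of the 30 highest genes 27.9%; without each array in turn these shares were 24.3 to 25.8% and 25.8 to 26.3%. No list median moved by more than 0.02 when quantile normalization was repeated. RMA values are already normalized, and the repeat took the mean of the sorted values of these same arrays as its reference. Such a step nearly keeps a mean over the arrays, so little movement was possible whatever the differences between them. Other ways to normalize were not tried. Leaving out Canton-S 1 raised 1 list median by 0.86, that of the thin filament. No paired analysis was possible because a single group was used. Signals near background limit what can be said of dim genes.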

Other observations

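Lists written after the levels had been seen gave further values for Canton-S muscle, as description only. Of 14 mitochondrial import genes, 8 were above background, against 40.0% of all genes. Tim17b stood at 10.26 ± 0.35 and Tim23 at 9.95 ± 0.33, both channel subunits of the inner membrane, while the copies Tim17a1 and Tim17b2 averaged 2.54 and 2.96. Genes of mitochondrial DNA upkeep were lower, with a median of 3.59: TFAM, which packs the mitochondrial genome, averaged 7.59 ± 0.19, and the polymerase gene PolG1 3.02. For mitochondrial shape and quality, the cristae gene Chchd3 averaged 10.46, the fusion gene Marf 8.81, the kinase gene Pink1 7.76 and the fission gene Drp1 3.61. The testis fusion gene fzo averaged 3.04.

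Of 31 genes of the vacuolar proton pump, 12 were in the top 5% and 15 near background, against 5.98% and 60% of all genes. Vha16-1 stood at 10.57 ± 0.30 and the copy Vha100-3 at 2.76. Among 9 tubulin genes, betaTub97EF (9.65, 10.08 and 9.83) and betaTub56D (8.88, 9.62 and 8.94) were in the top 5%, while the testis gene betaTub85D averaged 3.16. Of 21 autophagy genes, 13 were above background, against 40.0% of all genes, and Atg8a was the only one in the top 5%, at 9.10 ± 0.46. The energy sensor subunits SNF4Agamma and AMPKalpha averaged 8.12 and 7.77, and the insulin receptor gene InR 2.83.

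Of 35 transmitter receptor genes, 29 were near background, against 60% of all genes. Of 81 cytochrome P450 genes, 52 were near background, close to that share. Among 19 antimicrobial peptide genes, IM33 had 7.52, 9.10 and 8.51 and Drs 6.59, 7.48 and 8.22, while Mtk averaged 2.79. Of 10 clock genes none was in the top 5%, and Pdp1 was highest at 5.93 ± 0.12.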
